A study of Mus musculus with 6 samples.

Results

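Mouse embryonic stem cells (ESCs) grown with LIF and BMP-4 carried 1635 SMAD1/5 regions that were called in that medium only and lay close beside a region called in both ESC media. Peaks of the LIF+serum and LIF+BMP-4 lists were merged wherever they overlapped or touched, which gave 18386 regions. Of these, 5503 held peaks of both lists (shared regions), 9013 held LIF+BMP-4 peaks only (49.0% of all regions, the contrast by which the regions were chosen) and 3870 held LIF+serum peaks only. The 1635 flanking regions described here were chosen by their calls and positions in these 2 lists: each is a LIF+BMP-4-only region whose edge was 10 kb or less from the edge of a shared region. The other 7378 LIF+BMP-4-only regions are called distant. Every flanking region consisted of a single LIF+BMP-4 peak.

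The ESCs were E14 cells, an established mouse line. One ESC library came from cells in 15% fetal bovine serum with LIF at 1000 U/ml, and the other from cells in basal medium with LIF and BMP-4 at 10 ng/ml. Epiblast stem cells derived from the same ESCs (ESD-EpiSCs), kept in FGF2 (12 ng/ml) and activin A (20 ng/ml), were given BMP-4 at 10 ng/ml for 1.5 h or 24 h. Each of these 4 conditions was 1 immunoprecipitated library made with an antibody against Smad1, so differences between conditions are given without a test. Medium, BMP-4 exposure and library cannot be told apart. The lists hold peaks and no reads: the depth behind a call is unknown, and a site without a call may still be bound.

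BMP ligands act through receptor kinases that phosphorylate SMAD1, SMAD5 and SMAD8/9. With SMAD4 these enter the nucleus and bind GC-rich elements and CAGAC-type elements, often beside other transcription factors. In ESCs, BMP-4 together with LIF sustains self-renewal in the absence of serum, and the Id genes are classical direct targets. Regulatory elements commonly occur in groups, in which several bound sites lie within a few kilobases of each other. Positions below are on the mm9 build and 1-based, and gene names and sequences were not used here.

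The share of LIF+BMP-4-only regions that lay beside a shared region differed from that of LIF+serum-only regions by less than counting error. It was 18.1% for LIF+BMP-4 (1635 of 9013, exact binomial 95% interval 17.3 to 19.0) and 18.4% for LIF+serum (712 of 3870, 17.2 to 19.7). The number of LIF+BMP-4-only regions per LIF+serum-only region was accordingly 2.30 within 10 kb of a shared region and 2.34 beyond it. Shared regions themselves lay within 10 kb of another shared region in 22.8% of cases (1254 of 5503, 21.7 to 23.9). Intervals here and below cover counting error over regions of single libraries, and regions are not replicates.

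Flanking regions were concentrated next to the shared edge. The median distance was 3458 bp, with quartiles of 1376 and 6352 bp and a range of 6 to 9999 bp. Within 500 bp lay 188 of them (11.5%), within 1 kb 322 (19.7%), within 2 kb 565 (34.6%) and within 5 kb 1061 (64.9%). Per megabase of flanking sequence, which allows for the shrinking space between neighbouring shared regions, there were 30.1 regions in the first kilobase, 23.5 in the second and 17.0 in the third. The density was 12.0 per Mb between 9 and 10 kb, 9.89 between 10 and 20 kb, 7.48 between 20 and 50 kb and 4.72 between 50 and 100 kb. Between 10 and 12 kb it was 10.7 per Mb, so the 10 kb limit lay within a gradual decline. LIF+serum-only regions thinned out alongside, from 13.1 per Mb in the first kilobase to 5.92 between 9 and 10 kb and 2.22 between 50 and 100 kb. The ratio of LIF+BMP-4-only to LIF+serum-only regions ranged from 1.92 to 3.02 over the bins of 1 kb up to the limit.

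**Figure D1:**
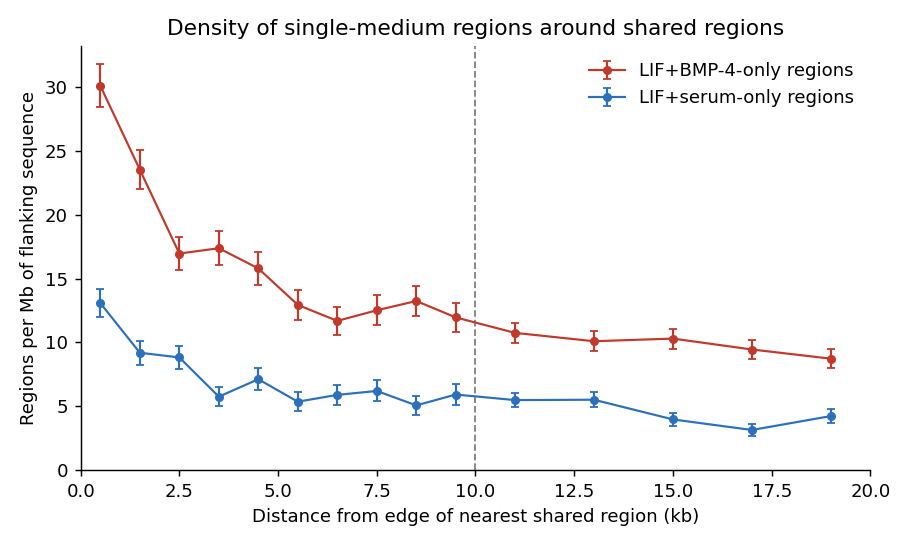
Regions per Mb of flanking sequence (vertical axis) against distance in kb from the nearest shared region (horizontal axis), for LIF+BMP-4-only and LIF+serum-only regions; points are bins, bars are the square root of the count per Mb (counting error only), and the dashed line is the 10 kb limit. LIF+BMP-4-only regions fell from 30.1 per Mb in the first kilobase to 12.0 per Mb between 9 and 10 kb, and LIF+serum-only regions from 13.1 to 5.92 per Mb.

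Scores varied widely on both sides of the 10 kb limit. The 3 just inside lay 9999, 9990 and 9988 bp from their shared regions, at chr2:73596035-73596512 (score 59.74), chr15:97944896-97945524 (117.92) and chr7:109618443-109618859 (55.94). The 3 just outside lay at 10002, 10005 and 10008 bp, at chr11:100179768-100180272 (69.81), chr1:135122490-135122948 (134.58) and chr13:23398642-23399206 (82.65). The score is the authors' own value per peak, runs from 50.0 upwards in the LIF+BMP-4 list and ranks peaks only within a list.

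The closest flanking regions all but touched their neighbour. The nearest, at chr6:136418703-136419245 (score 51.46), ended 6 bp before a shared region of rank 651 for LIF+serum and 8943 for LIF+BMP-4. The facing edge of the shared region was most often that of its LIF+serum peak, which reached nearer to the flanking region than the LIF+BMP-4 peak did in 1348 of 1635 cases (82.4%, 80.5 to 84.3). Over the whole lists, the median width was 811 bp for LIF+serum peaks and 500 bp for LIF+BMP-4 peaks. Measured to the neighbour's LIF+BMP-4 peak alone, the median distance was 3584 bp, and 274 flanking regions lay within 1 kb, against 322 when measured to the merged edge.

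Flanking regions were of modest rank in the LIF+BMP-4 list. Their scores ran from 50.09 to 293.52 with a median of 70.4, and their ranks from 324 to 14662 of 14696 peaks with a median of 8430. The median percentile in the list was 42.6, against 37.1 for distant regions and 75.1 for the shared neighbours. Scores of 100 or more were found for 291 flanking regions (17.8%, 16.0 to 19.7) and for 1084 distant ones (14.7%, 13.9 to 15.5), against 15.3% of all LIF+BMP-4-only regions. Scores of 200 or more were found for 7 flanking regions (0.428%) and 50 distant ones (0.678%), against 0.632% of all LIF+BMP-4-only regions. Scores of 100 or more were thus somewhat more frequent among flanking than among distant regions, while for 200 or more the order was the other way round, on few regions. Their widths ran from 209 to 1847 bp with a median of 498 bp, against 455 bp for distant regions. These scores come from the list that chose the regions and are a description only.

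The score of a flanking region did not follow its distance. The median was 70.8 in the first kilobase, 69.8 between 4 and 5 kb and 68.0 between 9 and 10 kb, with a rank correlation over the 1635 regions of 0.001. It did not follow the score of the neighbour either, with a rank correlation of 0.014 over the same regions. All points of both correlations share 1 library and its score threshold.

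Most flanking regions scored below the shared region beside them. This held for 1238 of 1635 (75.7%, 73.6 to 77.8). The same comparison of distant regions with their nearest shared region, however far away, gave 5603 of 7378 (75.9%, 74.9 to 76.9), and over all LIF+BMP-4-only regions it was 75.9%. Standing below the neighbour was therefore about as frequent far from shared regions as beside them. The median difference between a flanking region and its neighbour was -27.7 percentile points of the LIF+BMP-4 list, with quartiles of -52.3 and -1.20.

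The remaining 397 flanking regions scored at or above their neighbour. Splitting the pairs in this way fixes that these flanking regions rank higher, and their neighbours lower, in the LIF+BMP-4 list. In the LIF+serum list, whose scores the split did not use directly, the median percentile of these neighbours was 45.4 (quartiles 25.5 and 65.1). Where the flanking region was the weaker one, the neighbour's median percentile in LIF+serum was 70.4 (quartiles 43.2 and 87.3). The LIF+BMP-4 and LIF+serum scores of the 1302 neighbours had a rank correlation of 0.469.

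**Figure D2:**
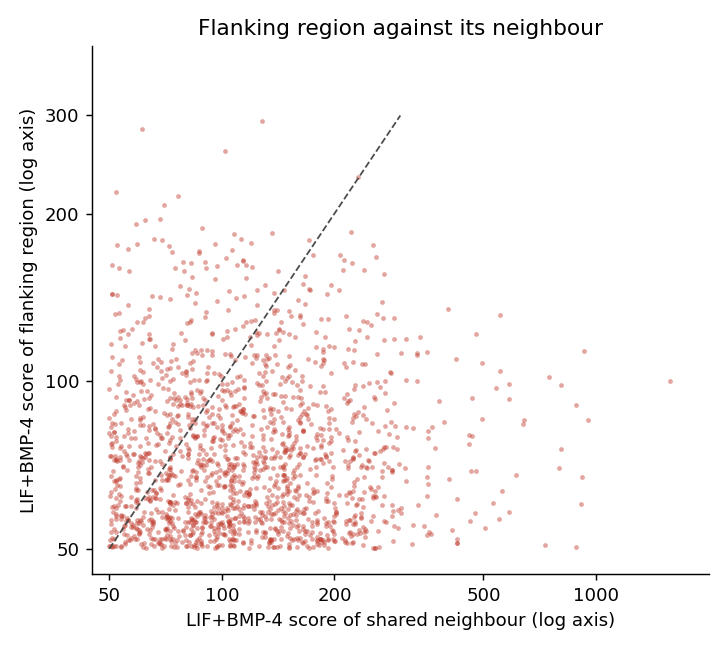
LIF+BMP-4 score of each of the 1635 flanking regions (vertical log axis) against that of its nearest shared region (horizontal log axis); each point is 1 flanking region and the dashed line marks equal scores. Of the points, 1238 lie below the line, and the cloud shows no slope (rank correlation 0.014).

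Of the 5 highest-scoring flanking regions, all scored above their neighbour, 4 of them by 157.24 to 222.77 and the other by 1.95. The highest lay at chr8:114492301-114493462 (score 293.52, rank 324), 4236 bp from a shared region of rank 2623 for LIF+BMP-4 and 3974 for LIF+serum. The second, at chr4:57706848-57707715 (score 283.88, rank 349), stood 1526 bp from a shared region of rank 10563 and outscored its neighbour by the widest margin, 222.77. The third, at chr3:41299726-41300393 (259.12, rank 459), was only 96 bp from a shared region of rank 4212. The fourth lay at chr8:129129560-129130896 (232.88, rank 618), and its neighbour, 1963 bp away, was at rank 625 for LIF+BMP-4 but 4932 for LIF+serum. The fifth lay at chr4:147459125-147459921 (218.8, rank 734) beside a shared region of rank 13762. At the other extreme, a flanking region at chr7:135015590-135016194 (100.04, rank 4369) lay 3794 bp from a shared region of rank 4 for LIF+BMP-4 and 8 for LIF+serum.

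Most shared regions had no flanking region within reach. On either side, 1400 of 5503 (25.4%, 24.3 to 26.6) had at least 1 within 10 kb, and 1302 were the nearest shared region of at least 1. Among those 1302 neighbours, 1031 (79.2%) had 1 flanking region, 219 had 2, 42 had 3 and 10 had 4. Flanking regions that shared their neighbour with another numbered 604 (36.9%). Taken over all flanking regions, both sides of the neighbour were used alike, with 833 (50.9%, 48.5 to 53.4) at higher and 802 at lower coordinates. Of the 271 neighbours with several, 117 (43.2%, 37.2 to 49.3) had them on both sides and 154 on 1 side only. Flanking regions on the same side of a neighbour were a median of 1931.5 bp apart. A shared region within 10 kb on each side was found for 148 flanking regions (9.05%).

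Shared regions that were the nearest neighbour of a flanking region differed little in score from the other shared regions, a few of which also had a flanking region within 10 kb that lay nearer to another. The median LIF+BMP-4 score was 108.7 for the 1302 neighbours and 104.4 for the other 4201 shared regions, and the median LIF+serum score was 82.4 against 81.1. Median widths were 925 and 882 bp. Another shared region lay within 10 kb of 22.4% (20.1 to 24.7) of the neighbours and 22.9% (21.7 to 24.2) of the others. The neighbours were also the nearest shared region of a LIF+serum-only region within 10 kb in 178 cases (13.7%, 11.9 to 15.7), and the others in 462 (11.0%, 10.1 to 12.0). By number of flanking regions, the neighbour's median LIF+BMP-4 score was 107.8 with 1, 111.4 with 2, 134.0 with 3 and 87.0 with 4, the last over 10 regions only. The shared region outscored all of its flanking regions in 956 of 1302 neighbourhoods (73.4%, 70.9 to 75.8). This held in 75.5% of those with 1 flanking region and in 65.7% of those with several. Outscoring several is harder than outscoring 1 by construction, so these 2 shares are not comparable as a trait of the groups.

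Shared regions with 4 flanking regions numbered 10, with a median score of 87.0, and the 5 highest-scoring of them are described here. Choosing by the shared region's score favours groups that it tops, so these 5 need not be typical. The first, at chr8:49281264-49282130, was at rank 1449 for LIF+BMP-4 and 4701 for LIF+serum. Its flanking regions scored 81.27, 58.02, 81.66 and 54.36, all below its own 165.03, with 1 at lower and 3 at higher coordinates over 15.25 kb. The second, at chr8:37610270-37611655 (score 151.2), had flanking regions of 63.48, 121.76, 51.02 and 133.9, the last 1258 bp away. Its rank was 1790 for LIF+BMP-4 and 6413 for LIF+serum. The third, at chr1:168054795-168055913 (113.76), had 4 within a narrow range of scores, from 65.96 to 88.03.

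The remaining pair had the lowest-scoring shared regions of the 5. The group on chromosome 16 was topped by flanking regions: the shared region at chr16:13740546-13741503 scored 95.95, while those at chr16:13749867-13750993 and chr16:13739133-13739545 scored 176.04 and 152.81 and the others 58.24 and 53.06. The shared region at chr14:77919422-77920540 (89.52) was at rank 1966 of 9387 for LIF+serum and 5466 of 14696 for LIF+BMP-4. That of the third group, on chromosome 1, was at ranks 2778 and 3342. Flanking regions of the chromosome 14 group, at 10, 1096, 1135 and 7926 bp, scored 56.75 to 81.63. In each of these 5 groups, no LIF+serum-only region within 10 kb had the shared region as its nearest. The shared region also met no ESD-EpiSC peak. Both absences were usual: among all 1302 neighbours, 13.7% had such a LIF+serum-only region and 0.461% met an ESD-EpiSC peak.

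**Figure D3:**
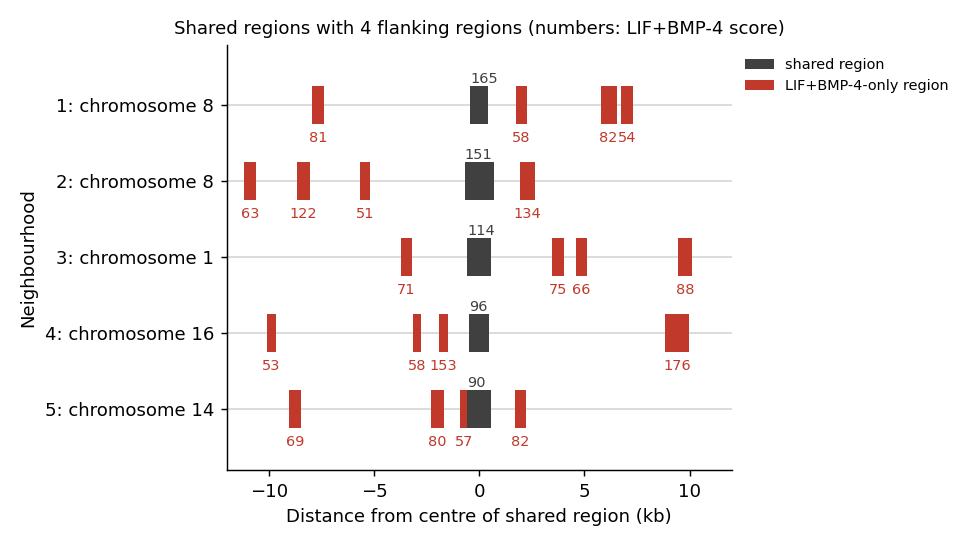
The 5 groups of 1 shared region (dark) and 4 flanking regions (red) with the highest-scoring shared regions, of 10 such groups. They are drawn to scale by distance in kb from the centre of the shared region, and numbers are LIF+BMP-4 scores. Flanking regions lie on both sides in these 5 groups. Among the 5, only in the group on chromosome 16 do any of them (153 and 176) outscore the shared region (96).

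Linking flanking and shared regions by gaps of 10 kb or less gave 1220 chains with a flanking region, of which 963 held 1 shared region and 257 several. The median span was 6.93 kb. The most flanking regions in a chain was 5, reached by 5 chains. The longest of all chains was picked out with its values known. It covered 57.23 kb of chromosome 11, chr11:97486570-97543796, and held 5 flanking and 5 shared regions.

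Flanking regions were spread over all chromosomes of the LIF+BMP-4 list. Chromosome 8 held the most, 145 of its 664 LIF+BMP-4-only regions (21.8%, 18.8 to 25.2), a share whose interval lay above the 18.1% of all chromosomes together. The intervals of chromosome 13 (56 of 436, 12.8%, 9.85 to 16.4), chromosome 18 (39 of 294, 13.3%, 9.61 to 17.7) and chromosome X (3 of 97, 3.09%, 0.642 to 8.77) lay below it. The other 16 intervals included it. The intervals were not adjusted for the number of chromosomes compared, and why these shares differed was not tested. LIF+serum-only regions within 10 kb of a shared region numbered 49 of 225 on chromosome 8. They numbered 39 of 191 on chromosome 13 and 20 of 144 on chromosome 18, against 18.4% on all chromosomes together. Chromosome X held 31 shared regions (0.563% of them) and 1.08% of all LIF+BMP-4-only regions. None of its 38 LIF+serum-only regions lay within 10 kb of a shared region.

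**Figure D4:**
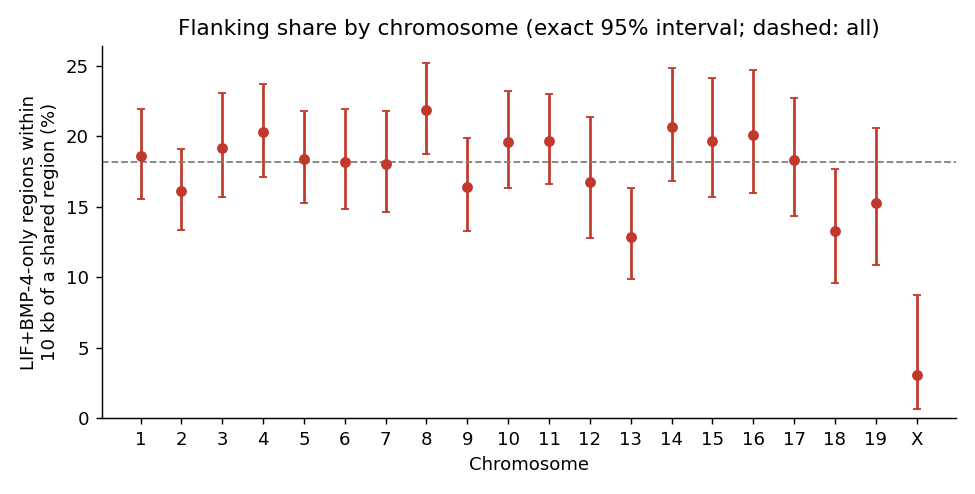
Share of LIF+BMP-4-only regions within 10 kb of a shared region (vertical axis, %) by chromosome (horizontal axis), with exact 95% binomial intervals; the dashed line is the share over all chromosomes, 18.1%. Chromosome 8 (21.8%) lies above the line and chromosomes 13, 18 and X (3.09%) below it by their intervals.

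Few flanking regions were called in ESD-EpiSCs, whose lists were not used to choose them. A 1.5 h peak overlapped 1 of 1635 flanking regions (0.0612%, 0.00155 to 0.340), against 0.354% of all 18386 merged ESC regions. A 24 h peak overlapped 3 (0.183%, 0.0379 to 0.535), against 0.185% of all. For either time the count was 4 (0.245%, 0.0667 to 0.625), against 0.484% of all, and none met peaks of both times. Distant LIF+BMP-4-only regions gave 17 of 7378 (0.230%, 0.134 to 0.369) and LIF+serum-only regions 13 of 3870 (0.336%, 0.179 to 0.574). All 3 intervals overlapped, and at these counts a difference between flanking and distant regions was not detectable. The ESD-EpiSC lists were short, with 225 peaks at 1.5 h and 133 at 24 h.

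The shared regions beside them were also seldom called in ESD-EpiSCs. An ESD-EpiSC peak of either time overlapped 6 of the 1302 neighbours (0.461%, 0.169 to 1.00) and 49 of the 4201 other shared regions (1.17%, 0.864 to 1.54). The intervals overlapped. Of 225 peaks at 1.5 h, 15 overlapped a flanking region or lay within 10 kb of one, and of 133 peaks at 24 h, 10 did. Direct overlap with a flanking region was found for 1 and 3 of them, and with any shared region for 54 and 20 peaks. No base share for lying near a flanking region was computed, so these counts are a description only.

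**Figure D5:**
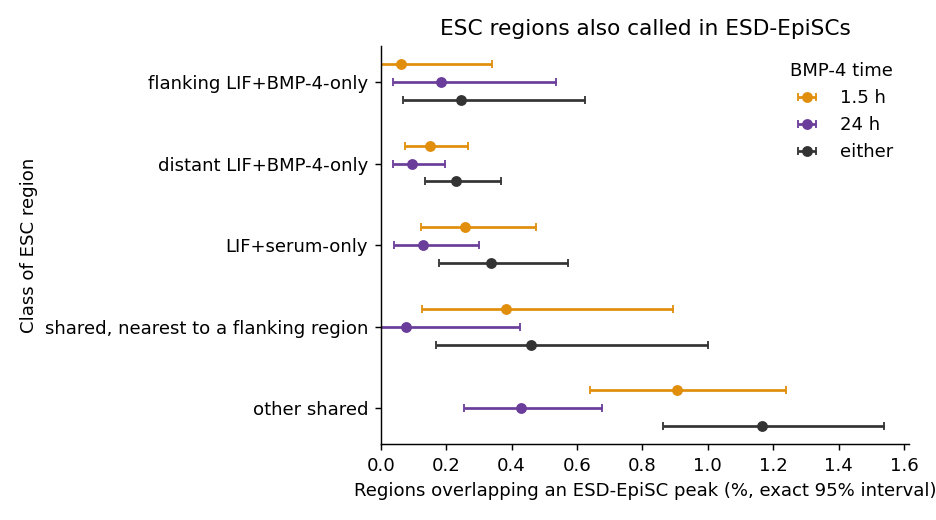
Share of ESC regions of each class that overlap an ESD-EpiSC peak (horizontal axis, %), for BMP-4 at 1.5 h, 24 h or either time, with exact 95% binomial intervals. Flanking (0.245%) and distant (0.230%) LIF+BMP-4-only regions lie close together for either time, and other shared regions are at 1.17%.

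The 4 flanking regions called in ESD-EpiSCs spanned the range of ESC ranks. In none did the shared neighbour itself meet an ESD-EpiSC peak, which only 6 of all 1302 neighbours (0.461%) did. The one called at 1.5 h lay at chr11:117264990-117265558 (LIF+BMP-4 rank 14124) and was 9360 bp from its neighbour. Its 1.5 h peak was 159 bp wide and ranked 54 of 225. Those called at 24 h lay at chr12:87839587-87840197 (rank 2057, 8187 bp from its neighbour), chr3:95456790-95457166 (rank 7724, 6858 bp) and chr1:72283700-72284063 (rank 11094, 614 bp). Their 24 h peaks were 93, 136 and 103 bp wide and ranked 82, 85 and 100 of 133. All 4 ESD-EpiSC peaks lay wholly inside the flanking region. The region on chromosome 12 outscored its neighbour by 76.93 and that on chromosome 1 by 7.03, while those on chromosomes 3 and 11 scored below theirs.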

How the data were processed

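SMAD1/5 ChIP-seq of 4 immunoprecipitated libraries was used, 1 per condition; 2 input libraries were not analysed here. The authors deposited 1 peak list per library with a score per peak, on mm9 per the submitters' processing notes, which name Bowtie 1.1.0, Picard and MACS 1.4.2 without roles. The sources used here do not state the read filters, the control of each list or the scale of the score, and depth is unknown.

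Overlapping or touching ESC peaks were merged, and distances are the bases between region edges. A region with several peaks takes its highest score. ESD-EpiSC overlap required 1 bp. Intervals are exact (Clopper-Pearson, 95%). Flanking sequence was counted up to the midpoint between consecutive shared regions. Python 3.11.15, numpy 2.4.6, pandas 2.3.3, scipy 1.17.1 and matplotlib 3.10.9 were used, and merging, distances and overlaps were tested on simulated data.

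The regions and the rules were chosen with earlier results of these data known. Named are the 5 highest-scoring flanking regions, the 5 shared regions with most of them (ties by LIF+BMP-4 score), all met by an ESD-EpiSC peak, 3 on either side of 10 kb and the one with the widest margin over its neighbour. The nearest one, the one furthest below its neighbour, chains and chromosomes were singled out afterwards. Gene and motif analyses were not run, because the gene and sequence tables at hand are GRCm38.p6. Each of 6 results was recomputed under 8 settings.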

Additional observations from a re-analysis of the deposited data

How the results depend on the processing

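No paired analysis was possible because there is a single library per condition, and no replicate could be left out. The motif setting, which needs mm9 sequence, was not run. Of 48 recomputed values, 26 stayed within the 95% interval of the value reported (or within 1.5 times for the number of regions) and 22 did not. The intervals differ in width: that of ESD-EpiSC overlap, from 4 regions, ran from 0.0667 to 0.625%. It took in 1 of 1061 (0.0943%) at a limit of 5 kb, so staying within it says little. A score of at least 100 in all lists gave 223 flanking regions (7.61% of LIF+BMP-4-only regions, at a median of 4009 bp), beside 14.2% of shared regions. By their start, 98 of the 223 were among the 1635. In this set, 79.4% scored below their neighbour and 0 of 223 (0.0%; 3 counts of 223, the limit a count of 0 allows, would be 1.35%) met an ESD-EpiSC peak, of which 44 (1.5 h) and 10 (24 h) then remained. The LIF+BMP-4 list shortened to 9387 peaks gave 810 flanking regions (17.1%), beside 16.6% of shared regions. Extension by 500 bp, which joins regions up to 1 kb apart, gave 16.3%, 22.2% of shared regions and a median of 3733.5 bp. Distances between midpoints gave 17.3% and a median of 4003.5 bp. By construction a limit of 5 kb gave 1061 regions (11.8%, 17.7% of shared regions, median 1832 bp), and one of 20 kb gave 2457 (27.3%, 35.9%, median 6373 bp). Apart from these limits, the extension and the midpoint distances, which act through their construction, the cause was not tested. The share of LIF+serum-only regions near shared ones moved alongside: 7.29% at a score of at least 100, 16.0% with the shortened list, 11.6% at 5 kb and 28.1% at 20 kb. Requiring 50% overlap of the shorter peak, or removing chromosome Y and peaks over 5 kb, moved none of the 6 results past its limit.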
